A study of Mus musculus with 2 samples.

Results

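The EP300 sites described here lay near, but not at, protein-coding genes' start sites in newborn mouse lung. They were chosen from the reproducible (optimal) peak set on chromosomes 1 to 19 by position alone. The summit had to lie more than 1 kb and at most 10 kb from the nearest protein-coding transcription start site (TSS) of GENCODE release M21, outside protein-coding exons and more than 1 kb from any noncoding TSS. Of 43988 optimal peaks, 7766 met this rule. Of these, 3662 lay upstream of the nearest TSS and 4104 downstream of it, by the strand of that TSS, and 0 were equally far from 2 start sites. A further 626 peaks at the same distances were left out by the exon and noncoding criteria, and 692 peaks of the set lay on other chromosomes or sequences.

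The assay was chromatin immunoprecipitation of EP300 followed by sequencing (ChIP-seq), and the tissue was newborn whole lung (age 0 days) of the mouse strain B6NCrl. The data comprised 2 libraries of 1 group, with no second genotype, treatment or age. The labels number them as biological replicates 1 and 2 but give them a single donor and biosample record, so their spread may be technical. Whole lung mixes epithelial, endothelial, mesenchymal and blood cells, and no step separated them.

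EP300 is a lysine acetyltransferase with no sequence preference of its own. DNA-bound transcription factors recruit it as a coactivator, and it acetylates histone H3 at lysine 27 and other proteins around active enhancers and promoters. Sequence just upstream of a gene and its first intron commonly hold enhancers that act on that gene, although the nearest gene is not always the one an enhancer regulates.

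Examples of the DNA at strong sites follow. Shown are the central 100 bp of the site with the highest signal on each side of a TSS, and of the strongest site with each of 6 motifs of factors known in lung. The capitals mark 1 motif per site, given in brackets, on either strand. In the sites picked by motif, the match follows from the choice. All are the plus strand of GRCm38 (mm10), read from the RefSeq assembly.
Lmo7, upstream, chr14:101838640-101838739 (TEAD): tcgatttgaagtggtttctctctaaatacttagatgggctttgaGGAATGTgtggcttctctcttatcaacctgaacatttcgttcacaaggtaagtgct
Bnip3, upstream, chr7:138919390-138919489 (FOX): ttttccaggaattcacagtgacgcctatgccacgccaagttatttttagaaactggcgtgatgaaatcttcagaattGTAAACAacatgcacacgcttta
Egfl7, upstream, chr2:26578583-26578682 (ETS-ERG): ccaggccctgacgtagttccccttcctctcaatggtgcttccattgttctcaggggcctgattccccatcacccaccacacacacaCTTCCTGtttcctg
Ttpal, upstream, chr2:163596140-163596239 (AP-1): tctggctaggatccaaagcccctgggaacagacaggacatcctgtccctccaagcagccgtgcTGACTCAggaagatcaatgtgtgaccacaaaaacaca
Hipk2, downstream, chr6:38835458-38835557 (GRE): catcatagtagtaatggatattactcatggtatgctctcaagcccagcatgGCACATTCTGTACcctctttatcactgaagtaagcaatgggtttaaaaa
Atp6v0a4, downstream, chr6:38120759-38120858 (NKX2): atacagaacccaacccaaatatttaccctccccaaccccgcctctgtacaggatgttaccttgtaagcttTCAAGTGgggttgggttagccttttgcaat

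Each motif was a fixed string of letters searched on both strands. The glucocorticoid response element (GRE, GNACANNNTGTNC) is the site of the glucocorticoid receptor and its steroid-receptor relatives. AP-1 (TGANTCA) is bound by FOS and JUN dimers, TEAD (ACATTCC) by the partners of the Hippo effectors YAP and TAZ, and ETS-ERG (CAGGAAG) by ERG, FLI1 and other ETS factors of endothelium. NKX2 (TCAAGTG) is the kind of site bound by NKX2-1, a master regulator of lung epithelium, and FOX (TGTTTAC) by forkhead factors. Some strings can overlap others, such as ETS-ERG and the longer PU.1 string GAGGAAGT. A match is a description of the letters and not a measured binding site.

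EP300 sites were almost evenly spread over the 2 sides of the TSS. Upstream sites made up 47.2% of the 7766 (95% Wilson interval 46.0% to 48.3%, counting error only). In the strongest 43988 peaks of each library the same rule gave 47.3% upstream in library 1 and 47.1% in library 2, a mean of 47.2% ± 0.191 (SD, n = 2). The sequence that met the rule was itself unequal, with 48.5% of it upstream. Per megabase of such sequence there were 24.2 sites upstream and 25.6 downstream, an upstream to downstream ratio of 0.946. The ratio was 0.953 in library 1 and 0.943 in library 2 (mean 0.948 ± 0.00727, SD, n = 2), so that in both libraries upstream sequence held slightly fewer sites. This order did not hold at every signal level. In the stronger 50% of the optimal set, 3839 sites met the rule and the ratio was 1.01. With 2 libraries no test between the sides was made.

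Site density was highest next to the TSS on both sides. At 1 to 2 kb there were 32.5 sites per Mb upstream and 35.1 downstream, and at 2 to 3 kb 26.5 upstream and 30.1 downstream. At 9 to 10 kb the values were 24.2 upstream and 23.5 downstream. Between 3 and 10 kb the density stayed from 19.9 to 24.2 per Mb upstream and from 21.9 to 25.4 downstream, with no steady decline. Both libraries gave the high value at 1 to 2 kb, with 33.5 ± 0.406 per Mb upstream and 37.0 ± 1.33 downstream (mean ± SD, n = 2). Distal sites beyond 10 kb, under the same exon and noncoding criteria, had 14.4 per Mb. Promoter peaks within 1 kb of a TSS, to which those criteria were not applied, reached 104 per Mb.

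**Figure D1:**
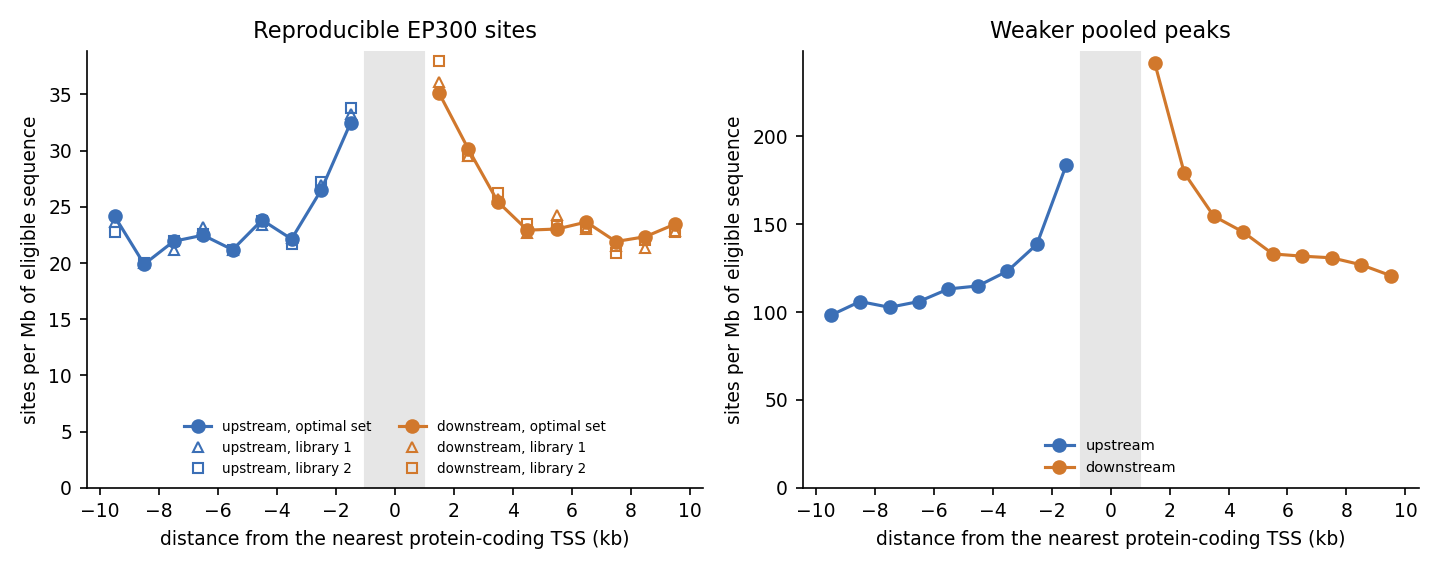
Sites per Mb of eligible sequence (y axis) in 1 kb bins of distance from the nearest TSS (x axis, upstream negative); filled circles are the optimal set, open symbols each library, and the right panel pooled peaks that overlapped no optimal peak. The left panel peaks next to the TSS at 32.5 upstream and 35.1 downstream, and the right panel is higher downstream in each bin.

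Peaks of the pooled list that did not reach the optimal set were more one-sided. Of 43392 such weaker peaks under the same rule, 43.2% lay upstream, with 124 per Mb upstream and 154 per Mb downstream and a ratio of 0.805. They reached 184 per Mb upstream and 241 per Mb downstream at 1 to 2 kb. They come from both libraries pooled and have no replicate value.

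Upstream and downstream sites lay in different kinds of sequence. Of upstream sites, 71.7% were intergenic, 20% lay inside the body of the gene whose internal start site they preceded, and 8.33% lay in another protein-coding gene. Of downstream sites, 89.1% lay in the body of their own gene, 8.80% were intergenic, past the gene's end, and 2.10% lay in another gene. The first intron of a transcript from the nearest TSS held 63.9% of downstream sites, and later introns held 24.3%. Inside protein-coding genes the density was 26.1 per Mb upstream and 27.4 downstream. In intergenic sequence it was 23.5 per Mb upstream and 15.0 downstream. The libraries gave 23.4 ± 0.0507 upstream and 15.0 ± 0.294 downstream for the intergenic values (mean ± SD, n = 2). Of the eligible sequence, genes held 39.8 Mb upstream and 136 Mb downstream, and intergenic sequence 112 Mb upstream and 24.0 Mb downstream. The sides thus drew on unequal amounts of each kind of sequence. Downstream intergenic sequence begins only past the gene's end, so its distances from the TSS and its genes differ from those upstream. These densities were not matched for distance. The weaker pooled peaks had the same orders, with 118 per Mb upstream and 85.6 downstream between genes, and 139 upstream and 166 downstream within them.

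The signal of a site is the authors' deposited value for the peak on the pooled libraries, and its scale is not stated. It had a median of 49.4 upstream and 46.9 downstream, over interquartile ranges of 35.2 to 77.3 and 33.4 to 72.5, so the sides overlapped almost entirely. In each library's own list the medians at the same sites were 29.9 upstream and 28.4 downstream in library 1, and 22.9 upstream and 21.6 downstream in library 2. Both sides had their lowest medians next to the TSS, where density was highest. At 1 to 2 kb the median was 46.6 upstream and 42.8 downstream, and at 2 to 3 kb 49.1 upstream and 44.0 downstream. Promoter peaks had a median of 44.9 and distal sites 49.5.

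**Figure D2:**
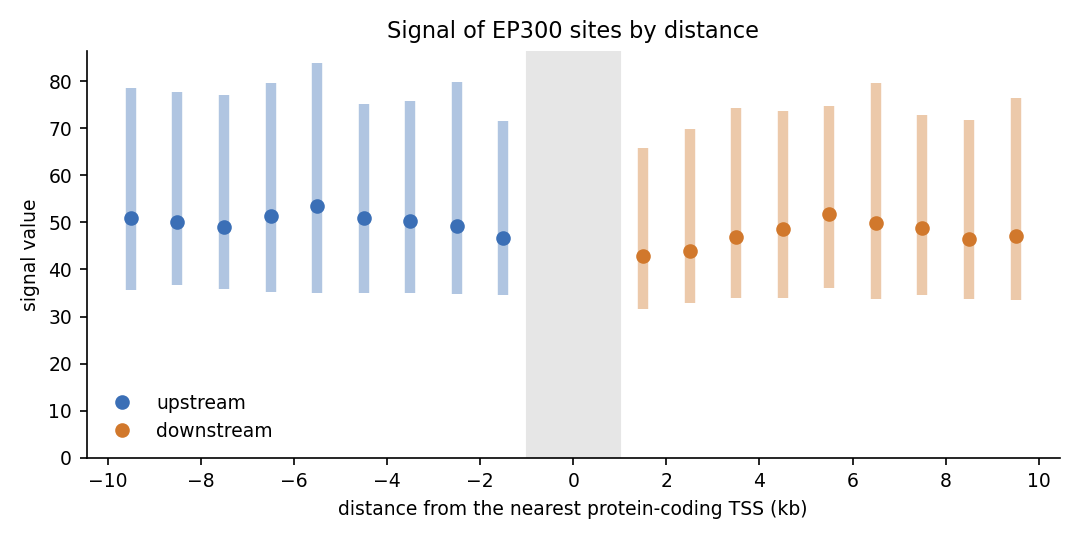
Deposited signal of the sites (y axis) by distance from the TSS (x axis, upstream negative); points are medians per 1 kb bin and bars interquartile ranges. The lowest medians are next to the TSS, 46.6 upstream and 42.8 downstream, and the ranges of all bins overlap.

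Of 7 properties compared between the sides, 1 passed (14.3% of those tested). A summit lay within 100 bp in the strongest 43988 peaks of both libraries at 63.4% of upstream and 60.3% of downstream sites (two-sided Fisher's exact test over sites, Benjamini-Hochberg adjusted p = 0.0303). The call was lost in either library's own list, in the conservative set, with 1 site per gene and in 3 further settings, and among the stronger 50% of the set the order turned to 94.1% upstream and 94.7% downstream (adjusted p = 0.515, exact test). The test treats sites as independent, which neighbouring sites are not. The strongest 10% of the optimal set by signal held 9.72% of upstream and 9.04% of downstream sites. The summit lay in a repeat at 11.6% of upstream and 10.9% of downstream sites. Another optimal peak overlapped 19.7% of upstream and 19.7% of downstream sites, so counts of sites per gene include overlapping peaks. A promoter peak stood at the same gene for 44.1% of upstream and 41.9% of downstream sites, with an adjusted p of 0.160 in the same exact test. Peak width could not separate the sides, since 97.4% of sites had a width of 424 bp.

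The strongest upstream site was the second strongest peak of the whole optimal set. It lay 1.96 kb upstream of an internal start site of Lmo7, a LIM-domain protein of cell junctions, and had a signal of 561, with 286 in library 1 and 276 in library 2. The site 9.93 kb upstream of Bnip3, a mitochondrial protein of hypoxia and mitophagy, had 507 in the pooled list, 250 in library 1 and 260 in library 2. The site 6.05 kb upstream of Akap5, a scaffold of protein kinase A, lay inside the neighbouring gene Mthfd1 and had 499, with 249 and 253 in libraries 1 and 2. Lmo7 and Akap5 both stand in the list of alveolar type 1 cell markers used below. Among the next upstream sites were those of Eif4h at 495, Egfl7 at 408, Ttpal at 387, Ergic1 at 383 and Gclc at 354. Gclc encodes the catalytic subunit of glutamate-cysteine ligase, an enzyme of glutathione synthesis. Sites of Txnip, the thioredoxin-interacting protein, at 341 and of Mcl1, an anti-apoptotic BCL2 relative, at 330 completed the 10 strongest upstream.

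The strongest downstream site lay 1.72 kb inside Hipk2, a nuclear kinase, in its first intron. Its signal was 467, with 244 in library 1 and 225 in library 2. The first intron of Ccnd3, which encodes cyclin D3, held a site 2.999 kb from the TSS with 452 in the pooled list, 222 in library 1 and 229 in library 2. The next was at Atp6v0a4, a subunit of the vacuolar proton pump, with 431, 244 in library 1 and 183 in library 2. Sites of Ddx47 at 418, Slc10a6 at 413 and Abhd17c at 399 followed. Dnajc5b had a pair of sites in its first intron, 3.65 kb and 4.78 kb from the TSS, at 389 and 379. Myh14, a nonmuscle myosin, had 359, and the clock gene Per1 had 358. All 20 of these sites had a summit in both library lists, with values from 170 to 286 in library 1 and from 147 to 276 in library 2. A GRE match was found in 3 of the 10 upstream sites (Ttpal, Ergic1 and Gclc) and in 3 of the 10 downstream sites (Hipk2, Ccnd3 and Per1). Its share was 2.23% over all 7766 sites and 6.60% over those in the strongest 10% of the optimal set. Other strings were as common in these 20 sites or nearly so. FOX was in 2 upstream and 3 downstream, AP-1 in 3 upstream and 0 downstream, and TEAD in 1 upstream and 2 downstream. The sites of Akap5 at 499, Eif4h at 495 and Dnajc5b at 379 matched none of the 45 motifs searched.

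**Figure D3:**
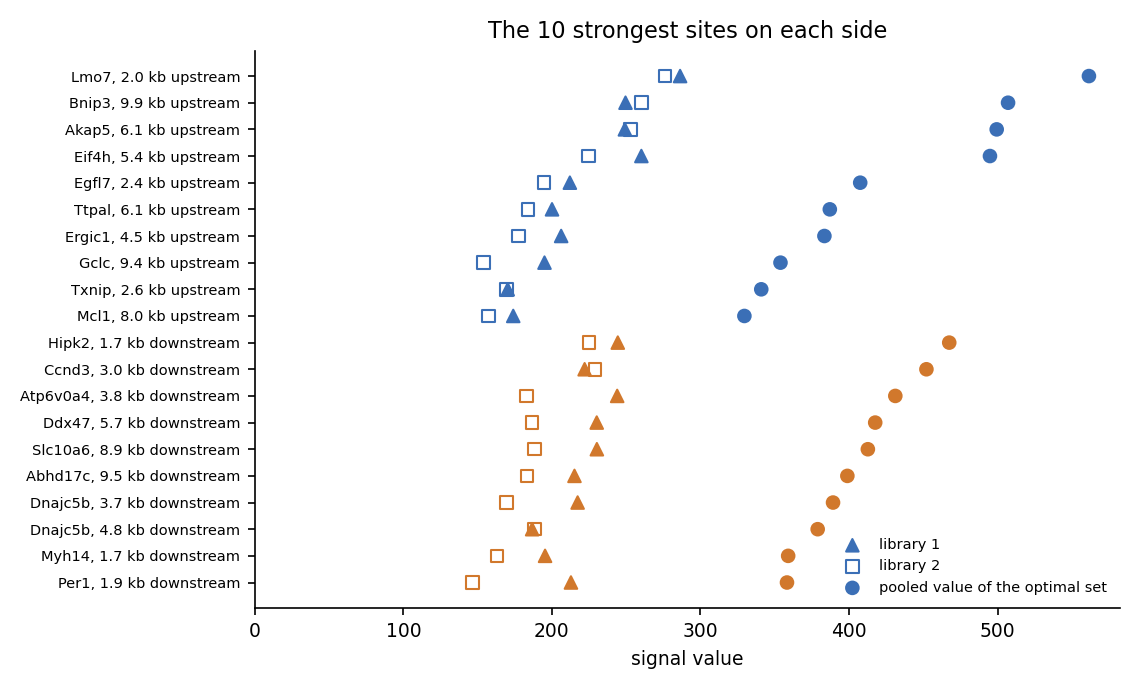
Signal (x axis) of the 10 strongest sites on each side, named by nearest gene and distance; circles are the pooled value, triangles library 1 and open squares library 2. Pooled values run from 330 to 561 upstream and from 358 to 467 downstream, and each library alone gives a lower value.

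The sequence content was close on the 2 sides. Of 45 motifs, 0 differed between upstream and downstream sites (0% of those tested; two-sided Fisher's exact test over sites, Benjamini-Hochberg threshold 0.05), and 3 had an unadjusted p under 0.05. The RFX string GTTGCCA, of the factors that drive ciliary genes, was in 2.02% of upstream and 1.15% of downstream sites (adjusted p = 0.105, exact test). The ETS-GABPA string CCGGAAG was in 2.21% of upstream and 1.46% of downstream sites (adjusted p = 0.379, exact test). The TATA string TATAAAA was in 0.983% of upstream and 1.54% of downstream sites (adjusted p = 0.498, exact test). With the start of each gene as its single TSS, RFX passed at 2.07% upstream and 0.969% downstream (adjusted p = 0.0105, exact test). In library 2 alone AP-1 passed, at 8.32% upstream and 6.31% downstream (adjusted p = 0.0292, exact test). A p above the threshold does not show that the sides were alike.

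The motifs of lung and stress-responsive factors had overlapping intervals on the 2 sides. ETS-ERG was in 10.8% of upstream sites (95% Wilson interval 9.82% to 11.8%) and 11.1% of downstream sites (10.2% to 12.1%). AP-1 was in 8.57% of upstream sites (7.71% to 9.53%) and 7.65% of downstream sites (6.88% to 8.50%). TEAD was in 6.42% of upstream sites (5.67% to 7.26%) and 6.02% of downstream sites (5.33% to 6.79%). FOX was in 5.08% of upstream and 5.04% of downstream sites. NKX2 was in 3.06% of upstream and 3.53% of downstream sites. GRE was in 2.27% of upstream sites (1.83% to 2.80%) and 2.19% of downstream sites (1.79% to 2.69%).

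These strings were commoner at the summit than beside it. Windows of the same length, 500 bp to either side of each summit, served as the background. GRE was in 2.23% of site centres and 0.167% of 15532 flanking windows, a ratio of 13.3. CTCF, the insulator factor's motif, was in 0.618% of centres and 0.0579% of flanks, a ratio of 10.7. The STAT string TTCCNGGAA was in 1.61% of centres and 0.245% of flanks, TEAD in 6.21% and 1.28%, and FOX in 5.06% and 1.24%. AP-1 was in 8.09% of centres and 2.80% of flanks, and ETS-ERG in 10.96% and 4.22%. Some strings showed no such excess, among them RUNX (TGTGGTT) at 2.43% of centres and 2.54% of flanks and NFY (CCAATCA) at 0.811% and 1.02%. The E-box CACCTG, the site of ZEB and SNAI repressors, was in 5.51% of centres and 7.98% of flanks. No test was made of centres against flanks.

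Motif content also differed between strong and weak sites. The 727 sites in the strongest 10% of the optimal set held GRE in 6.60%, against 0.644% of the 777 weakest of the 7766 sites. Some weak sites overlapped a stronger peak, so that their centres lay beside its summit. An example is a Dlc1 site with a signal of 12.4 beside one of 62.0. The part of such overlaps was not tested. TEAD was in 9.77% of the strongest and 2.45% of the weakest sites, FOX in 8.39% and 2.70%, NKX2 in 5.50% and 1.16%, and ETS-ERG in 13.2% and 5.53%. AP-1 was in 7.02% of the strongest and 4.25% of the weakest sites, both below its share over all sites. The E-box CACCTG was in 4.81% of the strongest and 6.95% of the weakest. These shares were not tested.

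Sites at 1 to 10 kb and promoter peaks differed in many motifs. The exon and noncoding criteria were applied to the former but not to promoter peaks. Without these criteria for either, 28 motifs differed as well. Of 45 motifs, 28 differed (62.2% of those tested; Fisher's exact test as above), 18 of them with a higher share at 1 to 10 kb and 10 with a lower one. TEAD was in 6.21% of sites at 1 to 10 kb and 1.98% of promoter peaks (adjusted p = 2.59e-32, exact test). GRE was in 2.23% and 0.583% (adjusted p = 1.75e-14, exact test), and AP-1 in 8.09% and 4.16% (adjusted p = 4.20e-19, exact test). The string AGATAAG of GATA factors was in 3.68% of sites and 1.35% of promoter peaks, NKX2 in 3.31% and 1.54%, FOX in 5.06% and 2.95%, and ETS-ERG in 10.96% and 6.81%, all past the threshold. On the other side, the SP string GGGGCGG of GC-rich promoters was in 1.52% of sites at 1 to 10 kb and 8.41% of promoter peaks (adjusted p = 1.45e-79, exact test). ETS-GABPA was in 1.82% and 7.09% (adjusted p = 3.12e-50, exact test), and NFY in 0.811% and 2.95%. CRE (TGACGTCA), the site of CREB factors, was in 0.322% and 0.753% (adjusted p = 0.00161, exact test). The IRF string GAANCGAAA of interferon-regulatory factors was in 0.0773% and 0.452%, and the EGR string GCGTGGGCG in 0% and 0.132%, both also past the threshold. Base composition moved with these differences, as the median GC content of the central 100 bp was 47% at 1 to 10 kb and 53% at promoter peaks, and its part in them was not tested.

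Against distal sites the differences were few and small. Of 45 motifs, 5 differed (11.1% of those tested; Fisher's exact test as above). SP was in 1.52% of sites at 1 to 10 kb and 0.863% of distal sites (adjusted p = 5.38e-05, exact test). ETS-GABPA was in 1.82% and 1.31%, the KLF string CCACACCC in 2.19% and 1.65%, and the E-box CACCTG in 5.51% and 4.43%. The NFI half-site TTGGCA was lower, in 8.36% of sites at 1 to 10 kb and 9.93% of distal sites (adjusted p = 0.000588, exact test). Of these 5, SP passed in all 13 other settings tried. The call was lost in 5 of them for KLF, in 4 for ETS-GABPA, and in 2 each for the E-box CACCTG and the NFI half-site. The share of this E-box was below the 7.98% of flanking windows in both sets of sites. GRE was in 2.23% of sites and 2.42% of distal sites and did not pass (adjusted p = 0.720, exact test). With 1 site per gene, the strongest of each, TEAD passed against distal sites as well (ratio of shares 1.28, adjusted p = 0.00207, exact test). The distal sites were not reduced in the same way, and TEAD was commoner at strong than at weak sites. The part of signal in this call was not tested.

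**Figure D4:**
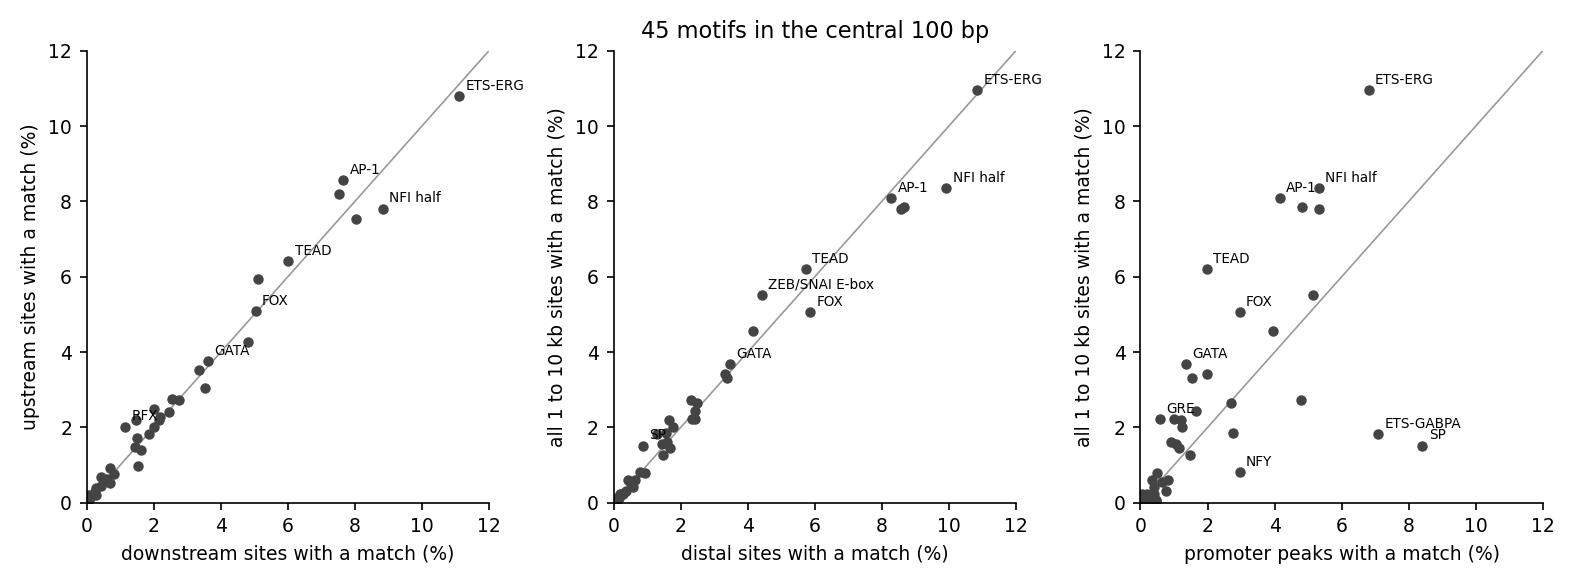
Percent of sites with a match of each of 45 motifs in the central 100 bp: upstream against downstream sites (left), all 1 to 10 kb sites against distal sites (middle) and against promoter peaks (right); each point is a motif and the line marks equal shares. Points follow the line in the first panels, while in the right panel SP (1.52% and 8.41%) and ETS-GABPA (1.82% and 7.09%) lie far below it and TEAD (6.21% and 1.98%) far above.

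The sites were nearest to 4336 of 20710 protein-coding genes, or 20.9%. Of these genes, 2473 had an upstream site, 2687 a downstream site and 824 both. A single site stood at 2540 genes, and 203 genes had 5 or more. A promoter peak was present at 35.7% of genes with a site at 1 to 10 kb and at 15.0% of the other genes.

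The genes with most sites differed in which side held them. These counts include overlapping peaks. The number of start sites differed too, from 1 at Scd2 and Hes1 to 22 at Tcf4, and its part in the counts was not tested. Dlc1, a RhoGAP, had 12 sites, 1 upstream and 11 downstream. In each library it had 11, 1 upstream and 10 downstream. Tcf4, an E-protein, had 12 with 4 upstream and 8 downstream, and Mbnl2, a splicing regulator, 12 with 5 upstream and 7 downstream. Rasgef1b had 11 (2 upstream, 9 downstream), but 9 in library 1 and 6 in library 2, of which 0 lay upstream. The count of Mbnl2 was 8 in library 1 and 9 in library 2. The retinoic acid receptor gene Rara had 11 (5 upstream, 6 downstream). Elk3, an ETS factor of vessels, had 11, with 7 upstream and 4 downstream. Ablim1 and Fkbp5 each had 10, with 7 upstream and 3 downstream. The libraries gave Ablim1 more, with 15 in library 1 and 17 in library 2, the highest counts among the genes named here. Scd2, a fatty acid desaturase, had 5 on each side, but 6 sites in all in library 1, and the Notch target Hes1 had 6 upstream and 4 downstream. Cipc, a repressor of the clock, had the most upstream sites, with 8 upstream and 1 downstream, and the cold-shock gene Cirbp had 7 upstream and 0 downstream. Elmo1 leaned the other way, with 1 upstream and 9 downstream. Cirbp was on the same side in the libraries, with 8 upstream and 0 downstream in library 1 and 5 upstream and 0 downstream in library 2.

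Genes of the distal lung epithelium often had a site. Gene lists are described by counts beside the 20.9% of all protein-coding genes. In bulk tissue, fewer cells of a type and less EP300 per cell cannot be told apart. Gene length and the number of start sites differ between genes, and their part in these shares was not tested. Of 20 alveolar type 1 markers, 16 had a site (80%; 75% in library 1 and 85% in library 2). Their sites numbered 16 upstream and 34 downstream. Hopx, a homeodomain-only cofactor, had 4 upstream and 3 downstream, and Cldn18, a tight-junction claudin, had 2 upstream and 4 downstream. The strongest site of Cldn18 lay 7.56 kb downstream, in the first intron, with a signal of 164, 97.1 in library 1 and 64.3 in library 2. Of 17 alveolar type 2 markers matched, 13 had a site (76.5%; the same in each library). Their sites numbered 15 upstream and 17 downstream. Sftpc, the surfactant protein C gene, had 2 upstream and 0 downstream, Sftpb had 1 upstream and 2 downstream, and the fatty acid transporter Cd36 had 3 upstream and 4 downstream. Etv5, an ETS factor of type 2 cells, had 1 upstream and 3 downstream.

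Endothelial genes also often had a site. Of 22 lung endothelial markers, 17 had a site (77.3%; 86.4% in library 1 and 81.8% in library 2), with 23 upstream and 20 downstream. Egfl7, a secreted factor of endothelium, had 4 on each side, but the upstream sites were the stronger. The 3 strongest lay 2.42, 4.90 and 9.04 kb upstream with signals of 408, 235 and 236. All 3 held the ETS-ERG string, of which the first is printed above. The 4 downstream sites lay inside the neighbouring Agpat2 and ran from 11.9 to 42.2. Cdh5, the adhesion molecule VE-cadherin, had 4 upstream and 1 downstream, with the strongest site at 116, 5.77 kb upstream. Over the list, ETS-ERG was in 8 of 43 sites, or 18.6%, against 10.96% of all 7766 sites. It was also in 7 of 39 sites of the FGF and receptor tyrosine kinase list (17.9%) and in 6 of 39 of the Hippo and YAP list (15.4%). These shares were not tested.

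Hormone-responsive and immediate early genes were also near many sites. Of 19 glucocorticoid-responsive genes matched, 12 had a site (63.2%; 63.2% in library 1 and 68.4% in library 2), with 21 upstream and 22 downstream. Fkbp5, a cochaperone of steroid receptors, had the most, and the phosphatase Dusp1 had 6 upstream and 1 downstream. The Dusp1 sites 5.23, 9.47 and 9.70 kb upstream lay inside the gene Ergic1, with signals from 11.6 to 36.6. They were measured from another Dusp1 start site than its other upstream sites. GRE was in 6 of 43 sites of the list, or 14.0%, against 2.23% of all sites. The 6 sites included those of Per1 (1.85 kb downstream, signal 358), Klf15 (4.99 kb downstream, 195) and the NF-kappaB inhibitor gene Nfkbia (3.76 kb downstream, 96.7). The others were those of Mt2 (1.11 kb upstream, 98.7) and 2 sites at Fkbp5, measured from different start sites. The Fkbp5 site with a signal of 46.7 lay between genes, 1.502 kb upstream of its start site. That with 107 lay inside the gene, 2.55 kb upstream of an internal start site. In library 2 the site of Mt2, a metallothionein gene, had no summit within 100 bp. Per1 also stands in the list of clock genes, where Nfil3, Tef and Cry2 each had an upstream GRE site as well. In that list GRE was in 4 of 30 sites, or 13.3%, and neither list's share was tested. Of 18 immediate early genes, 13 had a site (72.2%; 72.2% in library 1 and 77.8% in library 2), with 26 upstream and 25 downstream. Jun had 5 upstream and 0 downstream, and Fos 4 upstream and 0 downstream. Others leaned the other way, with 1 upstream and 6 downstream at Ier2 and 0 upstream and 4 downstream at Klf6. Btg2 had 2 upstream and 8 downstream. The 8 downstream peaks of Btg2 overlapped in pairs. Library 1 gave Btg2 0 upstream and 6 downstream, and library 2 gave it 3 upstream and 5 downstream. Of 17 clock genes, 9 had a site (52.9%), but 70.6% had one in library 1 and 76.5% in library 2, so this count depended on the peak list. Cry2 had 2 upstream and 8 downstream.

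Signalling and matrix lists fell in the same range. A site stood at 75% of 20 FGF and receptor tyrosine kinase genes, 70% of 20 TGF-beta and BMP genes, 68.8% of 16 Hippo and YAP target genes matched and 70% of 20 extracellular matrix genes. Fgf1 had 6 upstream and 3 downstream, and the feedback phosphatase Dusp6 had 1 upstream and 3 downstream. Id1, a BMP target, had 5 upstream and 2 downstream, and Smad7, the inhibitory SMAD, had 1 upstream and 5 downstream. In library 1 Smad7 had 5 sites and in library 2 it had 3. The Hippo and YAP list had 14 upstream and 25 downstream sites, of which Dlc1 gave 1 upstream and 11 downstream. Its members differed in side. Ccn1 and Ccn2, matricellular targets of YAP, each had 3 upstream and 0 downstream. Amotl2 had 2 on each side, and Amotl1 had 0 upstream and 3 downstream. The laminin chain gene Lama5 had 4 upstream and 3 downstream. Of 22 lung developmental transcription factors, 11 had a site (50%, and 22.7% in the stronger 50% of the set), with 17 upstream and 10 downstream. Foxp1 had 6 upstream and 3 downstream, Nfia 4 upstream and 1 downstream, and Nkx2-1 1 on each side. Foxa1, Foxa2, Sox2 and Sox9 had none.

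Further lists covered other cell types. A site stood at 56.3% of 16 smooth muscle and pericyte markers (62.5% in library 1 and 43.8% in library 2), but at 6.25% in the stronger 50% of the set. It stood at 37.5% of 16 airway markers, the same in each library. Mesothelial markers had a site at 25% of 12 genes, with 41.7% in library 1 and 33.3% in library 2. Fibroblast markers had one at 18.8% of 16 genes, with 31.3% in library 1 and 25% in library 2, so that they lay on either side of the 20.9% of all genes. The airway list had 10 upstream and 2 downstream, led by Cyp2f2, a club cell cytochrome, with 3 upstream and 0 downstream. Its strongest site lay 1.57 kb upstream with a signal of 81.7. Macrophage and lymphocyte markers each had a site at 12.5% of 16 genes, neuronal markers at 13.3% of 15, erythroid markers at 9.09% of 11 and hepatocyte markers at 7.14% of 14. The macrophage share was 12.5% in library 1 and 18.8% in library 2, and the hepatocyte share 14.3% in library 1 and 7.14% in library 2. Housekeeping genes had one at 33.3% of 18 and ribosomal protein genes at 25% of 20.

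**Figure D5:**
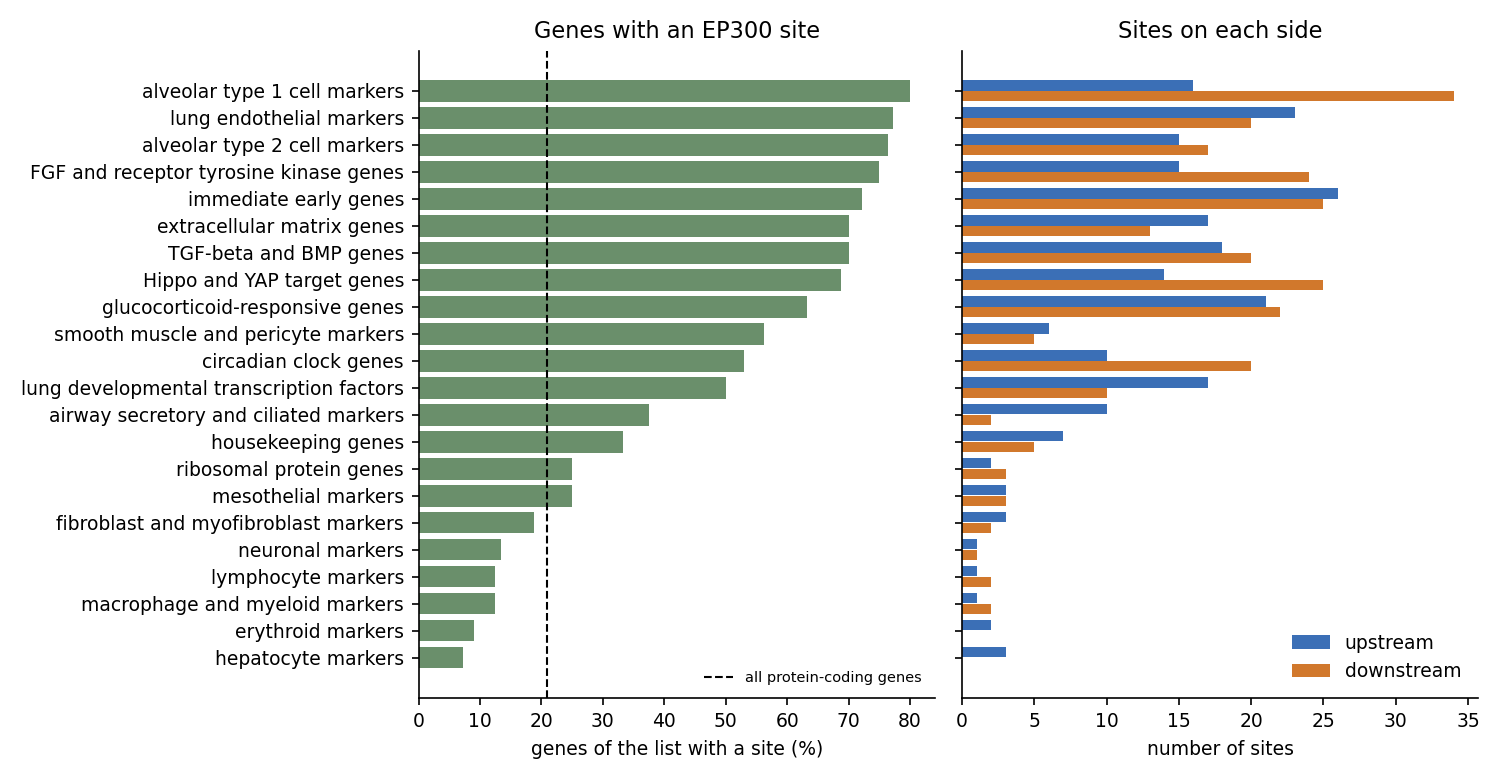
Left, percent of the matched genes of each list with at least 1 site (x axis), with a dashed line at the 20.9% of all protein-coding genes; right, the number of sites upstream and downstream. Alveolar type 1 markers reach 80% with 16 sites upstream and 34 downstream, and hepatocyte markers 7.14%.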

How the data were processed

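The authors called peaks on mm10 alignments of each library and of the pool (300000 peaks per list) and reduced them to conservative (42473) and optimal (43988) sets by the irreproducible discovery rate, per the deposited notes; aligner, caller and versions are not given in the sources used here. Each peak's signal was deposited by the authors on a scale that is not stated. The lists hold no read counts, so depth is unknown, and intervals cover the counting of sites only.

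Libraries were represented by their strongest 43988 peaks, matched within 100 bp of a summit. Start sites (39515) came from basic protein-coding transcripts of GENCODE M21. Eligible sequence was counted base by base under the rule for sites. Motifs, fixed strings, were sought in the central 100 bp of the RefSeq GRCm38.p6 sequence. Shares were compared by two-sided Fisher's exact tests, adjusted by Benjamini-Hochberg, threshold 0.05, and the code was tested on simulated data. Genes were named by a rule, and not every gene of the rule is described. The rule took the genes nearest to the 10 strongest sites per side and the 10 with most sites. It also took the 5 with most on each side and the 2 leading members of each list. Sftpb, Sftpc, Jun, Fos, Klf6, Ccn1, Ccn2, Amotl1, Nkx2-1, Foxa1, Foxa2, Sox2, Sox9 and the genes of GRE sites were named after their values were seen. Of 383 symbols in 22 lists, 372 matched. Sites, motifs and lists were chosen with earlier results of these data known. Python 3.11.15, numpy 2.4.6, pandas 2.3.3, scipy 1.17.1, matplotlib 3.10.9 and pysam 0.24.0 were used.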

Additional observations from a re-analysis of the deposited data

How the results depend on the processing

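The upstream share and the upstream to downstream density ratio were 47.2% and 0.946. They were 47.0% and 0.939 in the conservative set, 48.8% and 1.01 (reversed) in the stronger 50% of the optimal set, 47.3% and 0.954 with 1 site per gene, 45.5% and 0.856 with 1 start site per gene, 46.7% and 0.996 with no exclusion by exons and noncoding start sites, 46.7% and 0.944 at 2 to 10 kb, and 48.0% and 0.928 at 1 to 5 kb. Leaving out a replicate gave 47.1% to 47.3% and 0.943 to 0.953. Every basic transcript's start site gave 47.2% and 0.948, and overlapping peaks reduced to the strongest, an alternative chosen after the data had been seen, gave 47.2% and 0.949.

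Motifs differing upstream against downstream numbered 0, 1 with 1 start site per gene, 0 to 1 without a replicate, and 0 in every other setting. Properties differing between the sides numbered 1, and 0 in the conservative set, in the stronger 50%, without either replicate (0 to 0), with 1 site per gene, with no exclusion, at 2 to 10 kb and with overlapping peaks reduced; among the stronger 50% the ratio of shares in both libraries reversed to 0.994. Motifs differing from distal sites numbered 5, but 8 in the conservative set, 9 to 9 without a replicate, 2 in the stronger 50%, 3 with 1 site per gene, with overlapping peaks reduced and with the central 50 bp, and 11 with the central 200 bp. Against promoter peaks, 28 differed, and 22 to 32 under the alternatives. For the 22 gene lists, the share of genes with a site differed from the reported one by more than the spread of the libraries in 87 values under the alternatives, and by no more in 155. In the stronger 50%, which holds fewer sites by construction, it was 6.25% for smooth muscle, 22.7% for lung developmental factors, 37.5% for the Hippo list, 45% for the TGF-beta and matrix lists and 8.33% for mesothelial markers. The count of sites at each of the 10 genes with most sites moved by more than the spread of the libraries in 74 values, and by no more in 36. Settings such as 1 site per gene lower this count by construction. The causes were not tested. No paired analysis was possible because the libraries form 1 group. Depth is unknown, and a nearest gene is not a measured target. The spread of 2 libraries with a single donor and biosample record may be technical and does not bound the error.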
